A study of Sus scrofa with 4 samples.

Results

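Transcripts of 8 podocyte genes were followed through 4 libraries of pig kidney RNA. The genes were NPHS1, KIRREL (the name in the files of KIRREL1), KIRREL3, PODXL, PTPRO, SYNPO, WT1 and PLA2R1, chosen by name as parts or markers of the glomerular filter. All 8 were found among 26466 gene symbols, and all 8 passed the filter of at least 10 counts in 1 or more libraries, which kept 18168 genes. There was 1 library in each of 4 groups. GalT-/-;hCD39;hCD46;hCD55;TBM pigs, called CD39/CD46/CD55/TBM here, carried the human genes CD39, CD46 and CD55 together with thrombomodulin (TBM). GalT-/-;hCD39;hCD55 pigs, called CD39/CD55, carried human CD39 and CD55 only. Both genotypes lacked the galactosyltransferase that makes the alpha-Gal sugar, and no kidney of an unmodified pig was analysed here. Kidneys of each genotype were examined after transplantation into non-human primates and untransplanted. The transplanted CD39/CD46/CD55/TBM kidney was taken at 6 weeks and the transplanted CD39/CD55 kidney at 4 weeks. Genotype, time after transplantation and recipient therefore cannot be told apart between the transplanted kidneys. The sources used here do not give animal age, the promoters of the transgenes, or whether any kidneys came from the same animal.

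Podocytes are epithelial cells that wrap the glomerular capillaries with interlocking foot processes. Neighbouring foot processes are bridged by the slit diaphragm, a cell junction built of immunoglobulin-superfamily proteins. NPHS1 encodes nephrin, the main strut of that junction, and its loss causes congenital nephrotic syndrome in humans. KIRREL and KIRREL3 encode Neph1 and Neph2, relatives of nephrin. Neph1 is a binding partner of nephrin at the slit. PODXL encodes podocalyxin, a strongly negatively charged sialomucin of the podocyte surface that keeps foot processes apart, and PTPRO a receptor tyrosine phosphatase of the same surface. SYNPO encodes synaptopodin, which binds actin in the foot processes. WT1 is the zinc finger transcription factor that maintains podocyte identity, and PLA2R1 encodes the phospholipase A2 receptor, the main autoantigen of human membranous nephropathy.

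The library totals were 10346863 counts in the CD39/CD46/CD55/TBM transplant and 13226372 in its untransplanted counterpart, and 11566041 in the CD39/CD55 transplant and 14092905 in its untransplanted counterpart. Levels are given as scaled CPM, that is CPM after TMM normalisation, and a count of 0 would allow at most 0.219 to 0.29 scaled CPM. The share of counts on ribosomal RNA loci was 18.9% and 22.4% in the transplanted kidneys, against 12.6% and 10.8% in the untransplanted ones. Leaving those loci out changed no call on the 8 genes in the tests with 2 libraries a side. Kidney markers were present in every library. The thick ascending limb gene UMOD had 2214 and 6945 counts in the transplanted kidneys of CD39/CD46/CD55/TBM and CD39/CD55, against 15092 and 45070 in the untransplanted ones. SLC12A1, a transporter gene of the same segment, had 1550 and 1134 counts in the transplanted kidneys, against 1499 and 1232. The proximal tubule gene LRP2 had 831 and 2622 counts in the transplanted kidneys, against 20999 and 23515. Bulk RNA cannot tell fewer podocytes from less RNA per podocyte. It also cannot tell which cells gave the transcripts of a gene that other kidney cells share.

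**Figure D1:**
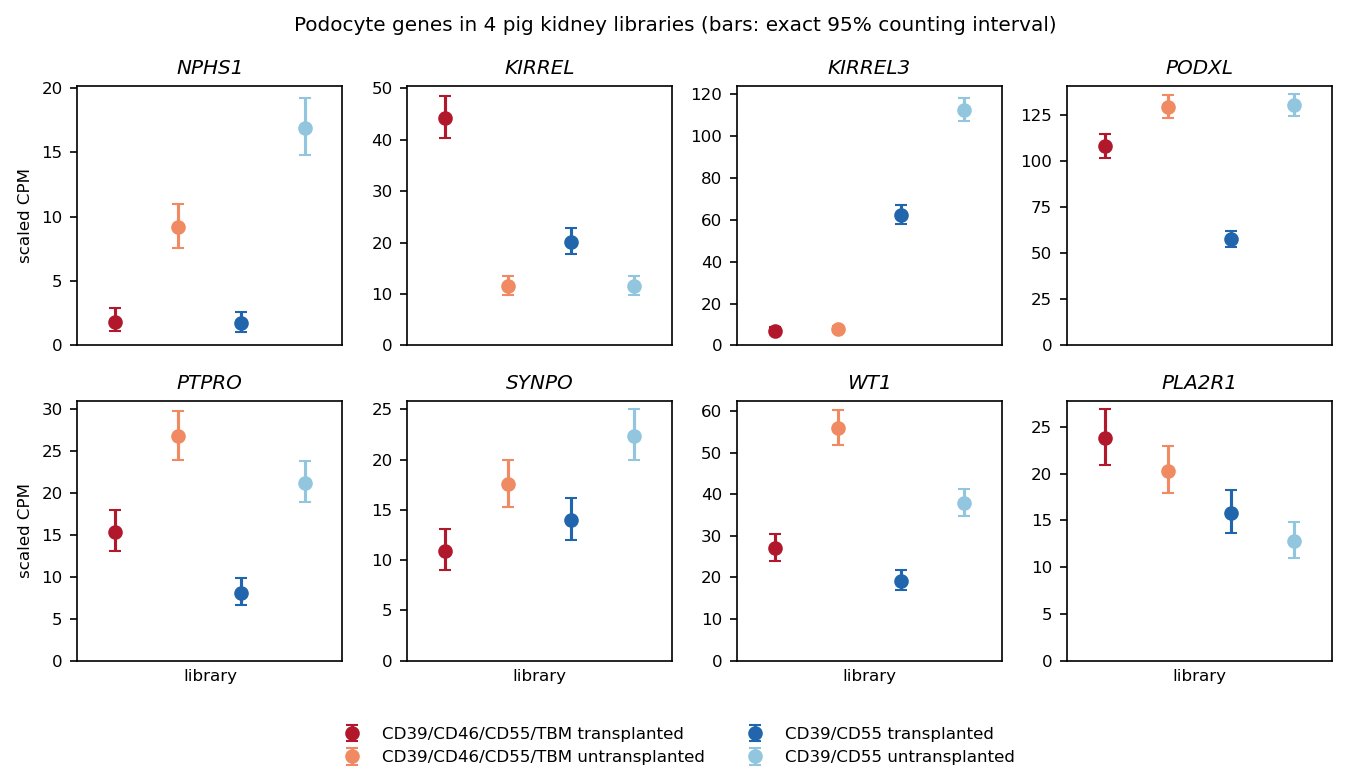
Level of each of the 8 podocyte genes in each library, in scaled CPM on a linear axis from 0; points are single libraries and bars are exact 95% counting intervals. NPHS1 lies at 1.84 and 1.70 in the transplanted kidneys, against 9.17 and 16.9 in the untransplanted kidneys, while KIRREL is highest in the CD39/CD46/CD55/TBM transplant at 44.3 and KIRREL3 is low in both CD39/CD46/CD55/TBM libraries.

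Transplanted and untransplanted kidneys were compared first over both genotypes, 2 libraries against 2. NPHS1 (chromosome 6, 45248325 to 45271892, Sscrofa11.1) was the 1 of the 8 genes that passed the test, and it fell. It had 19 counts (1.84 scaled CPM) in the CD39/CD46/CD55/TBM transplant and 116 counts (9.17 scaled CPM) in its untransplanted counterpart. In CD39/CD55 it had 21 counts (1.70 scaled CPM) in the transplanted and 232 counts (16.9 scaled CPM) in the untransplanted kidney. Both transplanted kidneys thus lay far below both untransplanted kidneys, and the transplanted kidneys lay close together where the untransplanted ones did not. The log2 fold change was -2.88 with an SE of 0.54, and edgeR's quasi-likelihood test gave an adjusted p of 0.0129 (Benjamini-Hochberg over all genes). NPHS1 passed under each of 9 alternatives, with adjusted p from 0.000118 to 0.0461. Of all genes tested, 2.71% fell and 1.24% rose. None of the 8 podocyte genes rose. In scaled CPM both transplanted libraries lay below both untransplanted ones for 5 of the 8 genes (NPHS1, PODXL, SYNPO, WT1 and PTPRO), against 25.5% of all genes, and above them for KIRREL alone, 1 of 8, against 26.3%. Their median log2 fold change was -0.74, against 0.03 over all genes, with 6 below 0 and 2 above.

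KIRREL (chromosome 4, 92173897 to 92290887), a partner of nephrin, had more counts in both transplanted kidneys but did not pass the test. It had 458 counts in the CD39/CD46/CD55/TBM transplant and 146 in its untransplanted counterpart. It had 249 counts in the CD39/CD55 transplant and 159 in its untransplanted counterpart. In scaled CPM these were 44.3 against 11.5, and 20.1 against 11.6. The untransplanted kidneys were nearly equal, and both transplanted kidneys lay above them. The log2 fold change was 1.48 (SE 0.47) and did not pass (edgeR's adjusted p = 0.103). It passed with genotype as a block (adjusted p = 0.0112) and without the transplanted CD39/CD55 library (adjusted p = 0.00348), and over all alternatives the adjusted p ran from 0.00348 to 0.569.

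The podocyte surface, cytoskeleton and transcription factor genes lay lower in the transplanted kidneys without passing. WT1 (chromosome 2, 28411467 to 28456007) had 280 counts in the CD39/CD46/CD55/TBM transplant and 707 in its untransplanted counterpart, and 238 in the CD39/CD55 transplant and 520 in its untransplanted counterpart. Its log2 fold change was -1.02 (SE 0.42, adjusted p = 0.203 by edgeR). PTPRO (chromosome 5, 57021819 to 57263395) had 159 counts in the CD39/CD46/CD55/TBM transplant and 338 in its untransplanted counterpart, and 100 in the CD39/CD55 transplant and 291 in its untransplanted counterpart. Its log2 fold change was -1.03 (SE 0.45, adjusted p = 0.232 by edgeR). Both passed in the fit with genotype as a block (adjusted p = 0.0325 for WT1 and 0.0416 for PTPRO), which has 1 residual degree of freedom.

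SYNPO (chromosome 2, 151571264 to 151634103) had 113 counts in the CD39/CD46/CD55/TBM transplant and 222 in its untransplanted counterpart, and 173 in the CD39/CD55 transplant and 307 in its untransplanted counterpart. PODXL (chromosome 18, 17444339 to 17494507) had 1118 counts in the CD39/CD46/CD55/TBM transplant and 1638 in its untransplanted counterpart, and 712 in the CD39/CD55 transplant and 1792 in its untransplanted counterpart. Their log2 fold changes were -0.68 for SYNPO (SE 0.42) and -0.65 for PODXL (SE 0.44), with adjusted p of 0.402 and 0.444 in edgeR's test. Neither passed under any alternative. In the RefSeq table PODXL overlaps MKLN1, and WT1 overlaps the noncoding LOC102161978. With the strand rule of the counting not given, reads in those overlaps cannot be assigned with certainty. MKLN1 had 3158 and 1880 counts in the transplanted kidneys of CD39/CD46/CD55/TBM and CD39/CD55, against 2707 and 2788 in the untransplanted ones, and LOC102161978 had 171 and 118, against 167 and 86.

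PLA2R1 (chromosome 15, 66899783 to 67018608) had the smallest log2 fold change of the 8 with all libraries in the fit. It had 246 counts in the CD39/CD46/CD55/TBM transplant and 257 in its untransplanted counterpart, and 196 in the CD39/CD55 transplant and 176 in its untransplanted counterpart. In scaled CPM these were 23.8 against 20.3, and 15.8 against 12.8, so the transplanted and untransplanted libraries overlapped. Both CD39/CD46/CD55/TBM libraries lay above both of CD39/CD55, as for 15.3% of all genes. The log2 fold change after transplantation was 0.26 (SE 0.44, adjusted p = 0.788 by edgeR) and turned to -0.04 and -0.06 without the untransplanted CD39/CD55 or the transplanted CD39/CD46/CD55/TBM library. KIRREL3 (chromosome 9, 53493735 to 54066490) was at -0.79 on the log2 scale (SE 0.97, edgeR's adjusted p = 0.689). That value depended on which libraries entered: it was 2.17 without the untransplanted CD39/CD55 library (adjusted p = 0.048), 0.05 without the transplanted CD39/CD46/CD55/TBM library and -3.08 without the transplanted CD39/CD55 library (adjusted p = 0.00104).

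Within each genotype the comparison had 1 library a side and no replicate check. A gene was called where the ratio of scaled counts was at least 2-fold and its exact 95% counting interval excluded 1. The intervals cover counting error only, and each call describes a pair of libraries.

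In CD39/CD46/CD55/TBM, transplanted over untransplanted, 2 of the 8 genes were called lower (16.3% of all genes) and 1 higher (15.9% of all genes). NPHS1 was lower with a log2 ratio of -2.29 (95% counting interval -3.10 to -1.61). WT1 was lower with -1.04 (-1.25 to -0.84), just past the threshold. KIRREL was higher with 1.94 (1.67 to 2.22), a 3.83-fold difference. PODXL, at -0.26 (-0.37 to -0.15), was called in neither direction.

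In CD39/CD55, transplanted over untransplanted, 3 of the 8 genes were called lower (13.7% of all genes) and none higher (13.2% of all genes). NPHS1 had a log2 ratio of -3.29 (-4.04 to -2.67), a 9.75-fold difference. PTPRO had -1.39 (-1.73 to -1.06) and PODXL -1.18 (-1.31 to -1.06). WT1 lay just inside the threshold at -0.98 (-1.21 to -0.75). The ratio of SYNPO was -0.68 in CD39/CD46/CD55/TBM and -0.68 in CD39/CD55.

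**Figure D2:**
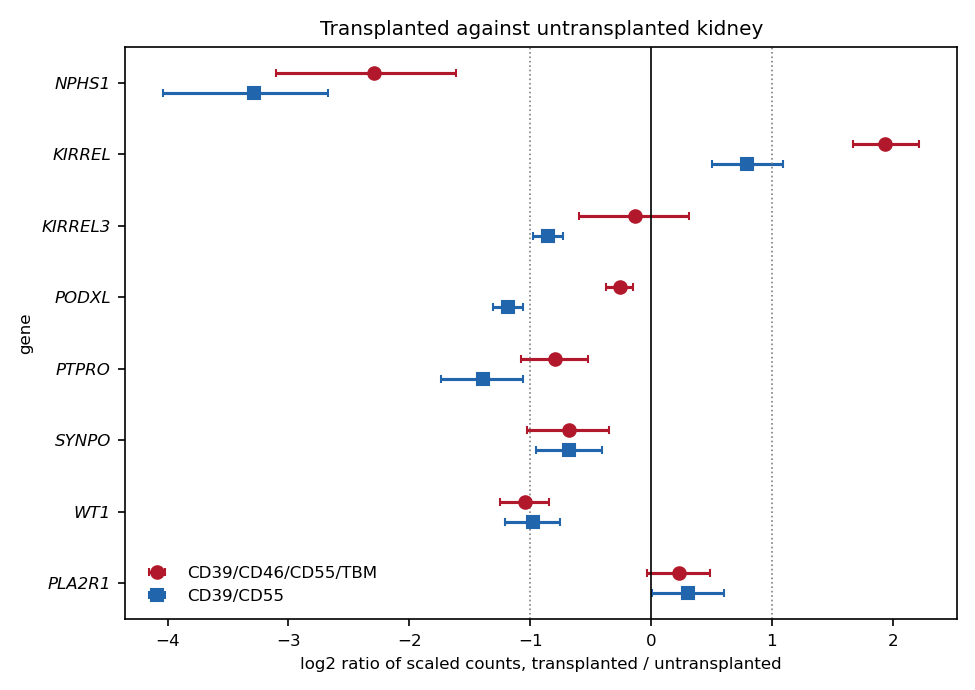
Log2 ratio of scaled counts, transplanted over untransplanted kidney, for each gene in CD39/CD46/CD55/TBM (circles) and CD39/CD55 (squares); bars are 95% counting intervals and dotted lines mark 2-fold. NPHS1 lies left of the dotted line in both genotypes, KIRREL right of 0 in both, and PODXL reads -0.26 in CD39/CD46/CD55/TBM and -1.18 in CD39/CD55.

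The transplantation ratios were then set against each other, as the log2 ratio in CD39/CD46/CD55/TBM minus that in CD39/CD55. KIRREL was the 1 of 8 genes past 2-fold with an interval excluding 0, with a difference of 1.14 (95% counting interval 0.75 to 1.53), against 10.4% of all genes in this direction. None of the 8 lay past 2-fold in the other direction (11.5% of all genes). PODXL had a difference of 0.92 (0.75 to 1.09) and NPHS1 one of 1.0 (0.06 to 1.94), just under 2-fold. The difference was -0.01 (-0.43 to 0.42) for SYNPO, -0.07 (-0.37 to 0.23) for WT1 and -0.08 (-0.46 to 0.31) for PLA2R1. With 1 library in each group, whether these differences exceed the spread between kidneys of 1 group was not tested.

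The genotypes were compared over both states, 2 libraries against 2. With 1 library of each genotype in each state, genotype cannot be told apart from differences between single animals. Between the transplants it also cannot be told apart from time and recipient. KIRREL3, a Neph family gene, differed most of the 8. It had 73 counts in the CD39/CD46/CD55/TBM transplant and 98 in its untransplanted counterpart, against 772 in the CD39/CD55 transplant and 1546 in its untransplanted counterpart. These are 7.06 and 7.75 scaled CPM, against 62.4 and 113. Both CD39/CD46/CD55/TBM libraries thus lay below both of CD39/CD55, as for 15.6% of all genes. The log2 fold change, CD39/CD46/CD55/TBM over CD39/CD55, was -3.56 (SE 0.51). It had an unadjusted p of 0.000316 in edgeR's quasi-likelihood test but an adjusted p of 0.982, and no gene of all tested passed (0% called). At an unadjusted p under 0.05, 190 genes were higher and 259 lower, and DESeq2's Wald test called 12 higher and 5 lower. KIRREL3 passed in DESeq2's Wald test (adjusted p = 1.57e-06), with state as a block (adjusted p = 4.88e-07) and without the transplanted CD39/CD55 library (adjusted p = 0.0169). Over all alternatives its adjusted p ran from 4.88e-07 to 0.983 and its log2 fold change from -3.92 to -3.07. The other 7 genes had log2 fold changes from -0.75 for NPHS1 to 0.81 for KIRREL and passed under no alternative.

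Between the untransplanted kidneys, CD39/CD46/CD55/TBM over CD39/CD55, KIRREL3 was the 1 gene of the 8 called lower (7.88% of all genes) and none was called higher (8.17%). Its log2 ratio was -3.86 (-4.17 to -3.57), a 14.5-fold difference. PODXL, at -0.01 (-0.11 to 0.09), and KIRREL, at 0.00 (-0.34 to 0.33), were nearly equal. NPHS1 was at -0.88 (-1.22 to -0.55), with fewer counts in CD39/CD46/CD55/TBM, and WT1 and PLA2R1 were at 0.56 (0.40 to 0.73) and 0.66 (0.38 to 0.95).

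Between the transplanted kidneys, CD39/CD46/CD55/TBM over CD39/CD55, KIRREL3 was again called lower (1 of 8, against 11.0% of all genes) with -3.14 (-3.51 to -2.80). KIRREL was called higher (1 of 8, against 11.0% of all genes) with 1.14 (0.91 to 1.37). PODXL, at 0.91 (0.77 to 1.05), and PTPRO, at 0.92 (0.56 to 1.30), were higher by less than 2-fold. NPHS1, with 19 against 21 counts, had a ratio of 0.12 (-0.86 to 1.08), so a difference of up to 2-fold was not detectable at this depth. These comparisons share libraries with the comparisons of transplanted and untransplanted kidney above.

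**Figure D3:**
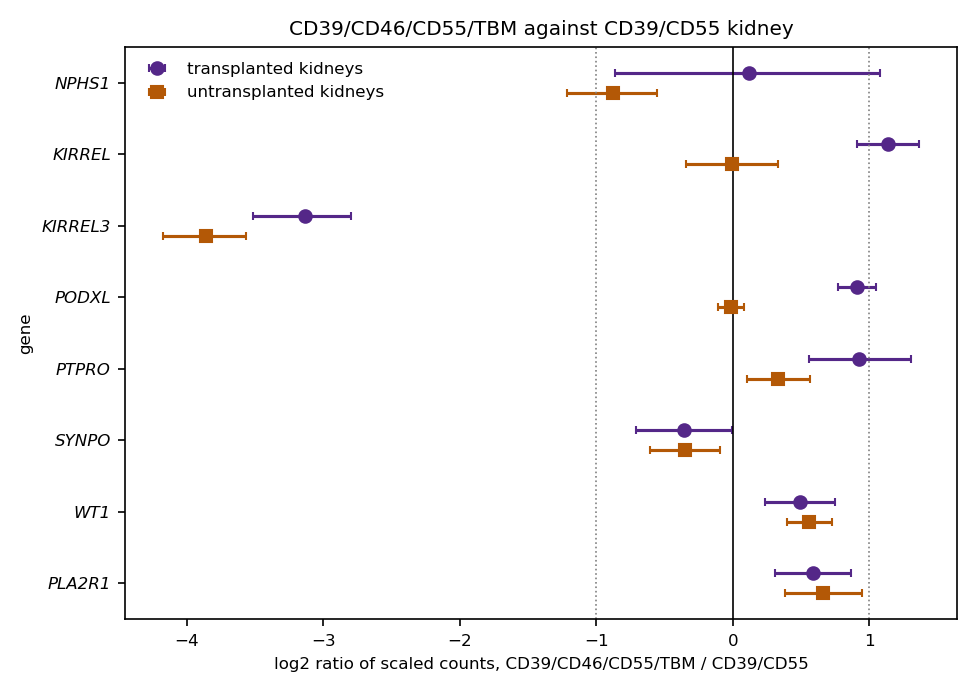
Log2 ratio of scaled counts, CD39/CD46/CD55/TBM over CD39/CD55, for each gene in the transplanted (circles) and untransplanted kidneys (squares); bars are 95% counting intervals and dotted lines mark 2-fold. KIRREL3 lies at -3.14 and -3.86, apart from the other 7 genes, and KIRREL and PODXL lie right of 0 in the transplanted kidneys and at 0 in the untransplanted ones.

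Shares within a library do not depend on scaling between libraries. They were taken of the summed counts of 7 of the genes, leaving out KIRREL3, which differed most between the genotypes. That choice was made after its values were seen. The 7 genes summed to 2393 counts in the CD39/CD46/CD55/TBM transplant and 3424 in its untransplanted counterpart, and to 1689 in the CD39/CD55 transplant and 3477 in its untransplanted counterpart. In scaled CPM this was 231 against 271, and 137 against 253, so the sum was lower in both transplanted kidneys and lowest in that of CD39/CD55.

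The make-up of that sum differed as well. NPHS1 took 0.794% (exact 95% binomial interval 0.479 to 1.24) of it in the CD39/CD46/CD55/TBM transplant and 3.39% (2.81 to 4.05) in its untransplanted counterpart. In CD39/CD55 it took 1.24% (0.771 to 1.89) in the transplanted and 6.67% (5.87 to 7.55) in the untransplanted kidney. KIRREL took 19.1% (17.6 to 20.8) in the CD39/CD46/CD55/TBM transplant and 4.26% (3.61 to 5.0) in its untransplanted counterpart. In CD39/CD55 KIRREL took 14.7% (13.1 to 16.5) in the transplanted and 4.57% (3.90 to 5.32) in the untransplanted kidney. The nephrin share was thus smaller and the Neph1 share larger in the transplanted kidney of each genotype, beyond counting error. PODXL took 46.7% and 42.2% in the transplanted kidneys of CD39/CD46/CD55/TBM and CD39/CD55, against 47.8% and 51.5% in the untransplanted ones. Per 100 counts of PODXL there were 1.70 of NPHS1 in the CD39/CD46/CD55/TBM transplant and 7.08 in its untransplanted counterpart, and 2.95 in the CD39/CD55 transplant and 12.9 in its untransplanted counterpart.

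**Figure D4:**
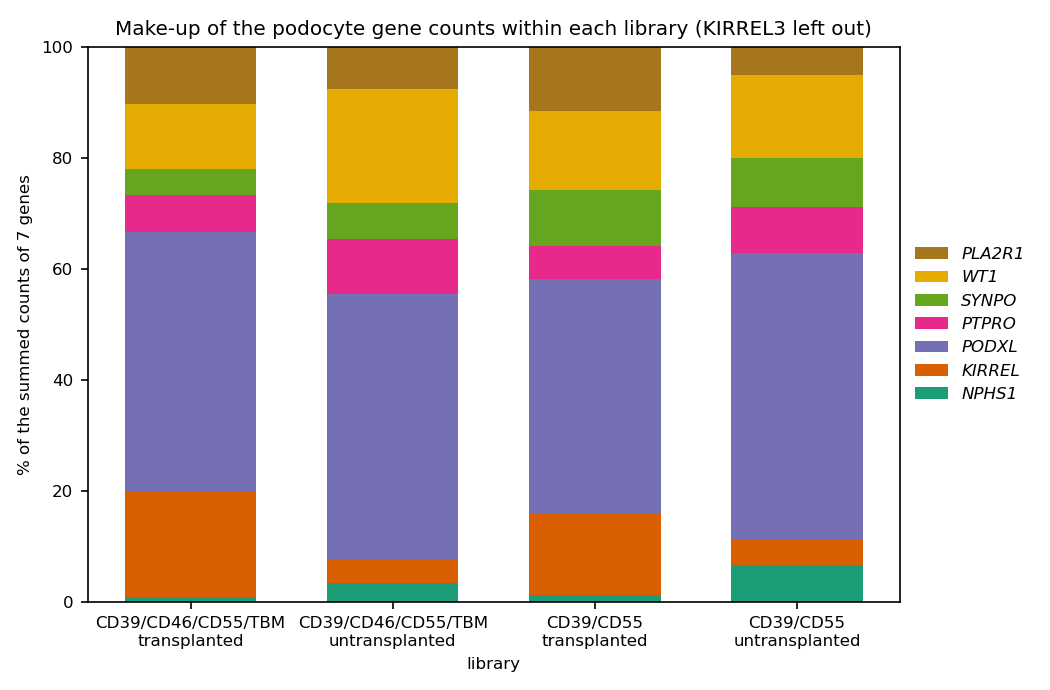
Percent of the summed counts of 7 podocyte genes (KIRREL3 left out) that each gene took in each library, as stacked bars from 0 to 100. The KIRREL band is 19.1% and 14.7% in the transplanted kidneys of CD39/CD46/CD55/TBM and CD39/CD55, against 4.26% and 4.57% in the untransplanted ones, and the NPHS1 band is narrower in each transplanted kidney.

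The 8 genes did not share 1 profile. Profiles were compared as log2 scaled CPM centred on each gene's mean over the 4 libraries, by root mean square distance. WT1 and PTPRO were nearest to each other at 0.18, and PODXL lay 0.22 from PTPRO and 0.29 from WT1. NPHS1 lay 0.99 from its nearest member, PTPRO, and KIRREL3 1.59 from its nearest, SYNPO. KIRREL lay nearest to PLA2R1, at 0.63, and 2.13 from NPHS1. Among 14326 other genes with a summed count of at least 100, the profiles nearest to that of NPHS1 were those of AMACR at 0.07, PEBP4 and LOC110261198 at 0.11 and 0.12, and SDC1 and LST1 at 0.12. AMACR had 53 counts in the CD39/CD46/CD55/TBM transplant and 360 in its untransplanted counterpart, and 66 in the CD39/CD55 transplant and 703 in its untransplanted counterpart. The profiles nearest to PODXL, the member with the most counts, were those of LOC110260779 (0.03), SEMA3D (0.05), GNG2 (0.06), SNX32 (0.07) and CFL1 (0.08). Of 14327 genes with that many counts 160 had a log2 fold change after transplantation at or below that of NPHS1.

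Other genes of the slit diaphragm and podocyte cytoskeleton were examined as a list of 40, of which 39 were measured. Of these none rose after transplantation, and the median log2 fold change was 0.15, with 25 genes above 0 and 14 below. Bulk RNA does not tell which cells gave these transcripts, so the median does not describe podocytes alone. DDN had 16 counts in the CD39/CD46/CD55/TBM transplant and 91 in its untransplanted counterpart. In CD39/CD55 it had 0 in the transplanted and 104 in the untransplanted kidney. Its log2 fold change was -3.29 (SE 0.94, adjusted p = 0.0727 by edgeR), and it is named here because of that value. SLC9A3R1, a scaffold protein with the most counts of the list and also used by the proximal tubule, had a log2 change of -1.06 (adjusted p = 0.294), and passed without the transplanted CD39/CD55 library (adjusted p = 0.0483). KIRREL2, another Neph gene and the neighbour of NPHS1, was the gene of the list below the filter, with 1 count over all libraries, and is named here because of that value.

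Among 38 measured podocyte transcription factors and other podocyte genes, 1 fell and 1 rose, with a median of -0.25. NES, which encodes the intermediate filament protein nestin of podocytes and of vessels, fell. It had 101 counts in the CD39/CD46/CD55/TBM transplant and 684 in its untransplanted counterpart, and 146 in the CD39/CD55 transplant and 501 in its untransplanted counterpart (log2 fold change -2.07, SE 0.43, adjusted p = 0.0206 by edgeR). Its adjusted p was 0.0598 when the CD39/CD46/CD55/TBM library of the untransplanted kidney was left out. UCHL1, a ubiquitin hydrolase, rose. It had 241 counts in the CD39/CD46/CD55/TBM transplant and 16 in its untransplanted counterpart, and 115 in the CD39/CD55 transplant and 49 in its untransplanted counterpart (log2 fold change 2.74, SE 0.62, adjusted p = 0.0288). The adjusted p of UCHL1 was 0.0562 and 0.0831 when the untransplanted or the transplanted library of CD39/CD46/CD55/TBM was left out. DACH1, the transcription factor with the most counts of this list, had a log2 change of 0.35 (adjusted p = 0.724).

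Of 16 glomerular basement membrane genes 1 fell and none rose, with a median of -0.23. COL4A4, a chain of type IV collagen, had 390 counts in the CD39/CD46/CD55/TBM transplant and 1615 in its untransplanted counterpart, and 285 in the CD39/CD55 transplant and 2161 in its untransplanted counterpart (log2 fold change -2.23, SE 0.45, adjusted p = 0.0171 by edgeR). COL4A3 and COL4A5, the chains that join COL4A4 in the network of the mature glomerular basement membrane, had log2 changes of -0.25 (adjusted p = 0.795) and -0.82 (adjusted p = 0.298) and are named here after their values were seen. COL4A1, of the network of most basement membranes, had a log2 change of -0.27 (adjusted p = 0.784).

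Markers of other kidney cell types also differed, and their part in the podocyte values was not tested. Of 19 measured glomerular endothelium genes 1 fell, the angiopoietin receptor gene TEK (log2 fold change -1.83, adjusted p = 0.0381); leaving out either untransplanted library or that of the CD39/CD46/CD55/TBM transplant took its adjusted p to between 0.0741 and 0.102. The list summed to 508 and 406 scaled CPM in the transplanted CD39/CD46/CD55/TBM and CD39/CD55 kidneys, against 564 and 644 in the untransplanted ones. TGFBR2, its gene of most counts, had 182 and 76.6 of these in the transplanted kidneys, against 98.6 and 121. The median log2 fold change of the list was -0.61, with 15 genes below 0 and 4 above. Of 18 mesangium and vascular mural genes, ACTA2, smooth muscle actin, fell (-1.76, adjusted p = 0.0356) and the matrix protein gene POSTN rose (3.0, adjusted p = 0.0241). ACTA2 did not pass without the untransplanted CD39/CD55 library (0.23) or the transplanted CD39/CD46/CD55/TBM library (0.0602), and POSTN did not pass without the untransplanted CD39/CD55 library (0.0772). The list summed to 448 and 547 scaled CPM in the transplanted kidneys, against 521 and 710. Of 14 measured parietal epithelium genes, the keratin gene KRT7 rose (2.31, adjusted p = 0.0312 by edgeR). It did not pass when the CD39/CD46/CD55/TBM library of the untransplanted kidney was left out. The list summed to 863 and 906 scaled CPM in the transplanted kidneys, against 588 and 1085. CLDN2, its gene of most counts, had 39.2 and 173 of these in the transplanted kidneys, against 274 and 613. Whether parietal or tubule cells gave the CLDN2 transcripts was not tested, so the sums need not describe parietal cells. The log2 change of CLDN2 was -2.06 (adjusted p = 0.105 by edgeR). It passed under 5 of 9 alternatives, over which the log2 change ran from -3.49 to -1.36. The median log2 fold change of the list was 0.58, with 8 genes above 0 and 6 below.

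Of 16 tubule segment markers 6 fell and none rose, with a median of -1.38, 14 below 0 and 2 above. The 2 above were SLC12A1 at 0.21 (adjusted p = 0.823 by edgeR) and FOXI1 at 1.47 (adjusted p = 0.0786). Both are named here after their values were seen. The 16 markers summed to 1457 and 2313 scaled CPM in the transplanted CD39/CD46/CD55/TBM and CD39/CD55 kidneys, against 8581 and 10237 in the untransplanted ones. LRP2 had a log2 change of -3.53 (adjusted p = 0.00825 by edgeR) and SLC34A1, a phosphate transporter of the proximal tubule, one of -3.63 (adjusted p = 0.00313). The other 4 that fell were the transporter genes SLC5A2, SLC5A12 and SLC12A3, at -3.29, -6.18 and -5.69, and GATM, a creatine synthesis enzyme, at -5.61 (adjusted p from 0.000631 to 0.00234). Of 9 measured leukocyte markers 3 fell, C1QA, CSF1R and TYROBP, and the list summed to 17.8 and 12.6 scaled CPM in the transplanted kidneys, against 49.0 and 57.2. CD14 alone of the 9 lay above 0, at 1.65 (adjusted p = 0.165 by edgeR), and is named here because of that value. It had 41 and 48 counts in the transplanted kidneys, against 12 and 21. All are counts on pig genes with the handling of primate reads not given, so they do not measure the leukocytes of the recipient. None of 8 coenzyme Q synthesis genes, a group in which human mutations cause nephrotic disease, passed, with a median of -0.81. COQ9, with the most counts of them, had a log2 change of -0.95 (adjusted p = 0.209, and 0.0462 with genotype as a block).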

How the data were processed

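Raw counts per gene symbol were used as deposited by the authors, without normalization. Lexogen QuantSeq libraries are named per the labels' protocols, and Bowtie2, bedtools and Sscrofa11.1 per the submitters' processing notes. The sources used here do not give versions, strand, the handling of shared or primate reads, or whether 3' ends or whole transcripts were counted. Levels are therefore not compared between genes, and shares and count ratios of genes are compared only between libraries. Lines of 81 repeated symbols were summed. Genes reaching 10 counts in any library were scaled by TMM and tested with edgeR 4.0.16 (quasi-likelihood, 2 residual degrees of freedom, Benjamini-Hochberg, threshold 0.05). The SE is the log2 fold change divided by the square root of F. Each side pools 2 genotypes or 2 states, and p-values measure only the spread between these libraries. Single pairs used a prior count of 0.5 and exact intervals (Clopper-Pearson), and differences of ratios Wald intervals, for counting error only. DESeq2 1.42.0 served as an alternative. Scripts were tested on simulated data. Members, lists and tests were chosen with earlier results of these data known. Named were all 8 members, list genes past the test over all genes, at most 4 genes of highest summed count in each list, and the 5 profiles nearest to NPHS1 and to the member of most counts. Coordinates are RefSeq's for Sscrofa11.1, in which all 26466 symbols were found. The result for 1 gene of the slit diaphragm list is not reported here.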

Additional observations from a re-analysis of the deposited data

How the results depend on the processing

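Genes that rose and fell after transplantation numbered 225 and 493, but 431 and 865 in DESeq2's Wald test, 543 and 1035 with no filter, 1124 and 1681 with genotype as a block, and 186 to 1051 and 392 to 1349 when single libraries were left out, the most without the transplanted CD39/CD55 library. Between genotypes, 0 and 0 genes were higher and lower, but 12 and 5 in DESeq2's Wald test, 133 and 171 with state as a block, and 0 to 14 and 0 to 4 when single libraries were left out, the most without the untransplanted CD39/CD55 library. Fits with a block or without a library have 1 residual degree of freedom and assume that a lone library varies like the others. DESeq2's size factors and leaving out ribosomal RNA loci kept these counts within 1.5 times. With a 1.5-fold threshold in single pairs, transplanted over untransplanted, members called lower numbered 4 in CD39/CD46/CD55/TBM (25.0% of all genes) and 6 in CD39/CD55 (22.6%), where 1 was called higher (22.0%). Between genotypes, 2 were then lower (16.9% of all genes) and 1 higher (16.4%) in untransplanted and 4 higher (19.7%) in transplanted kidneys. With library totals and no TMM factor 1 member was called lower in CD39/CD46/CD55/TBM, against 2 with TMM. The share of all genes called with library totals was not computed, so nothing is read from that count. Leaving out single libraries turned some log2 fold changes that had not passed. After transplantation these ran from -3.08 to 2.17 for KIRREL3, -0.061 to 0.62 for PLA2R1, -0.53 to 0.028 for COL4A1, -0.021 to 0.84 for DACH1 and -0.52 to 0.73 for TGFBR2. Between genotypes they ran from -2.33 to 1.69 for NPHS1, -0.73 to 0.026 for SYNPO, -0.13 to 1.04 for PODXL, -0.0079 to 1.38 for PTPRO, -0.075 to 1.11 for WT1 and -0.46 to 1.49 for KIRREL. The cause was not tested. No paired analysis was possible other than the genotype block, which sets each transplanted kidney against the untransplanted one of its genotype. Each group had 1 library, and the sources do not give whether any kidneys came from the same animal.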

Other observations

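The ratio of KIRREL3 between genotypes was set beside those of all well-counted genes. In these ratios genotype cannot be told apart from differences between single animals. Of 14327 genes with a summed count of at least 100, 292 (2.04%) were called lower in CD39/CD46/CD55/TBM than in CD39/CD55 in both the transplanted and the untransplanted kidneys, and none other than KIRREL3 had ratios at or below those of KIRREL3 in both. Its nearest annotated neighbour, ST3GAL4, 1888 bases away, had 34 counts in the CD39/CD46/CD55/TBM transplant and 40 in its untransplanted counterpart, against 46 in the CD39/CD55 transplant and 31 in its untransplanted counterpart, so that neighbour showed no such gap. The profile nearest to that of KIRREL3 over the 4 libraries, at a root mean square distance of 0.15 on the log2 scale, was that of CSPG4, the pericyte proteoglycan NG2. CSPG4 had 9 counts in the CD39/CD46/CD55/TBM transplant and 14 in its untransplanted counterpart, against 87 in the CD39/CD55 transplant and 220 in its untransplanted counterpart. The next nearest, FRS3, lay at 0.62. CSPG4, FRS3 and ST3GAL4 were chosen after their values were seen.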
